A study of Homo sapiens with 8 samples.

Results

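The 10 genes described here encode the cyclins and cyclin-dependent kinases that carry human cells through the division cycle. They are the D-type cyclins CCND1 and CCND3 with the kinase CDK4, the E-type cyclins CCNE1 and CCNE2 with CDK2, the A-type cyclin CCNA2, and the B-type cyclins CCNB1 and CCNB2 with CDK1. A row of the counts table was taken where its Ensembl gene ID maps to one of these symbols, so no measured value entered the rule. Each symbol had 1 ID, and all 10 IDs passed the filter on low counts, out of 40295 gene IDs in the table and 16519 that were tested.

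Total RNA depleted of ribosomal RNA was sequenced from HCT116, a human colorectal cancer line, in 4 groups of 2 libraries. Knock-in cells that carry the MED12 allele E33Q were treated for 24 h with interferon-γ (IFN-γ) at 5 ng/ml or left untreated, and wild-type HCT116 cells were treated for 24 h with IFN-γ at 5 ng/ml or left untreated. The untreated libraries are labelled 0 h, and an untreated culture kept for 24 h was not analysed here, so IFN-γ and the added time in culture cannot be told apart. The knock-in was made with CRISPR-Cas9 and is represented by 1 line, so the allele cannot be told apart from other differences between the lines. The design text calls the 2 libraries of a group biological replicates and says no more about how they were prepared, so p-values measure the spread between these samples. The allele is a single amino acid change, which counts per gene cannot check.

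A cyclin is the regulatory subunit of a kinase that is inactive without it, and each wave of cyclins opens the next step of the cycle. D-type cyclins with CDK4 begin the inactivation of the retinoblastoma protein in G1, E-type cyclins with CDK2 complete it and start DNA replication, cyclin A2 serves replication and the entry into mitosis, and the B-type cyclins with CDK1 drive mitosis itself. IFN-γ is a cytokine known to slow the growth of many epithelial cells, while MED12 holds and activates the kinase CDK8 within the Mediator complex.

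The libraries held 20901909 to 28045842 counts, and the deposited estimated counts of the 10 genes lay between 383 and 23510 per library. Of 8 epithelial markers, KRT8 and EPCAM were abundant, while VIL1 was at 0 to 0.16 CPM. Several features of the libraries touch what follows. The GC content of the transcripts behind the counts averaged 49.4% in both treated knock-in libraries against 46.8 and 46.9% in untreated ones, and 49.3% in both treated wild-type libraries against 48.1 and 47.0% in untreated ones, so that the first untreated wild-type library stood between the treated and the other untreated libraries. ERCC spike-in RNA took 0.263% of the counts in both treated knock-in libraries against 0.138 and 0.141% in untreated ones, and 0.228 and 0.271% in treated against 0.110 and 0.128% in untreated wild-type libraries. The 10 plasma cell markers, genes of antibody-secreting cells, summed to 275 and 349 CPM in the second treated and second untreated knock-in libraries and to 354 and 398 CPM in both untreated wild-type libraries, but to 2.05 CPM or less in the other 4 libraries, where 5 to 7 of the 10 were at 0. The part of these features in the results was not tested, other than by the fits without the GC trend, with spike-in scaling and without single libraries. Markers of leukocytes and fibroblasts summed to at most 7.58 CPM in any library.

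In what follows, CPM is the usual depth-scaled count, with library sizes adjusted by TMM factors (trimmed mean of M-values), a fold change is given on the log2 scale with its standard error (SE), and a gene is called where the adjusted p of edgeR's quasi-likelihood test (Benjamini-Hochberg over all tested genes) is under 0.05. Each level is therefore a share of its library. In bulk RNA, fewer cells in a phase of the cycle and less RNA per cell cannot be told apart.

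With IFN-γ, the mitotic genes CCNB1, CCNB2 and CDK1, cyclin A2 and the E-type cyclin CCNE2 fell in both lines. The D-type cyclin CCND1 rose in both, although with the spike-ins as the scale the wild-type value turned to −0.18, not called. In knock-in cells 8 of the 10 were called, against 52.1% of all tested genes. Of these, 3 were higher (background 26.4%) and 5 were lower (background 25.8%). In wild-type cells 6 of the 10 were called, against 37.9% of all tested genes, with 1 higher (background 17.1%) and 5 lower (background 20.8%). The shares called higher were close to the background or under it, and those called lower were above it. The median log2 fold change of the 10 was −0.52 in knock-in cells, beside 0.12 over all tested genes, and −0.41 in wild-type cells, beside 0.08. The members called lower were the same 5 in both lines, namely CCNA2, CCNB1, CCNB2, CCNE2 and CDK1.

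**Figure D1:**
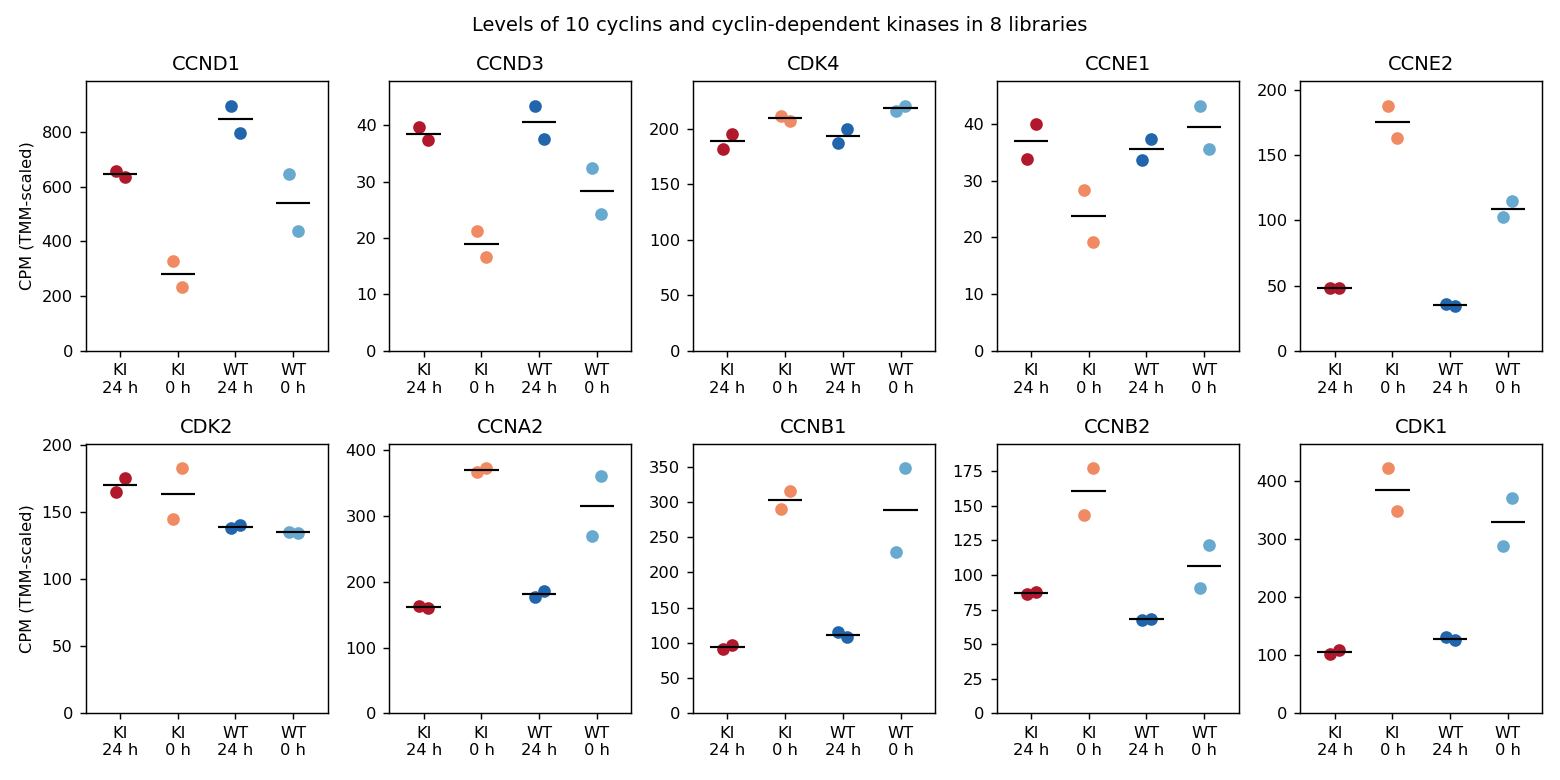
Each panel plots one gene's level in CPM (TMM-scaled, linear axis from 0) in the 8 libraries, with points for single libraries and a bar for the mean of 2; KI is knock-in, WT is wild-type, 24 h is with IFN-γ and 0 h is untreated. CCNE2, CCNB1 and CDK1 were far lower in treated than in untreated libraries of both lines, CCND1 and CCND3 were higher (in wild-type cells not so under spike-in scaling, at −0.18 and −0.30), and CDK2 and CDK4 spanned narrow ranges.

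CCND1 (chr11:69641087-69654474, plus strand, GENCODE release 29 on GRCh38) encodes cyclin D1, which binds CDK4 and CDK6 and links growth signals to the cycle. It was at 657 and 636 CPM in treated knock-in cells, against 327 and 232 CPM in untreated knock-in cells. In wild-type cells it was at 897 and 797 CPM with IFN-γ, against 647 and 436 CPM without. Both treated libraries lay above both untreated libraries of their line, and the untreated pairs were wider apart than the treated pairs. The rise was 2.31-fold in knock-in cells (log2 1.21 ± 0.21 SE, adjusted p = 0.00121) and 1.56-fold in wild-type cells (0.64 ± 0.21, adjusted p = 0.0358). The wild-type call was lost, with edgeR, without the second untreated wild-type library (0.39, adjusted p = 0.164) or the first or second treated one (0.55, 0.173 and 0.73, 0.0831). It was also lost without either treated knock-in library (0.64, 0.0559 and 0.0558). Omitting a knock-in library changes the shared spread, the scaling and the set of tested genes, but not the wild-type counts.

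CCND3 (chr6:41934933-42050357, minus strand), the cyclin D3 gene, was at 39.7 and 37.4 CPM in treated knock-in cells, against 21.3 and 16.7 CPM in untreated knock-in cells. In wild-type cells the values were 43.5 and 37.6 CPM with IFN-γ and 32.4 and 24.3 CPM without. The treated libraries of the lines overlapped each other and lay above all 4 untreated ones. CCND3 rose 2.03-fold in knock-in cells (log2 1.02 ± 0.19 SE, edgeR adjusted p = 0.00183), while its 1.43-fold difference in wild-type cells was not called (0.51 ± 0.19, adjusted p = 0.0583; 0.65, adjusted p = 0.0297, without the first untreated wild-type library).

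CDK4 (chr12:57747727-57756013, minus strand), the catalytic partner of the D-type cyclins, was at 182 and 195 CPM in treated knock-in cells, against 211 and 207 CPM in untreated knock-in cells. Wild-type libraries held 187 and 200 CPM with IFN-γ, against 216 and 221 CPM without. The 4 treated libraries lay just below the 4 untreated ones. Neither difference was called (log2 −0.15 ± 0.11 SE in knock-in cells, edgeR adjusted p = 0.309, and −0.17 ± 0.11 in wild-type cells, 0.26) with all libraries and TMM scaling. Without the first untreated wild-type library both were called (−0.23, adjusted p = 0.0451 in knock-in and −0.28, 0.0491 in wild-type cells). Calls of CDK4 under other scalings are given with the GC content and the spike-ins. CDK4 shares 1369 of its 3168 exonic bases with TSPAN31 on the opposite strand, and whether reads were assigned by strand is not given in the sources used here, so its level may include reads of that gene.

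CCNE1 (chr19:29811898-29824308, plus strand) and CCNE2 encode the 2 cyclins that activate CDK2 at the G1/S transition. CCNE1 was at 33.9 and 40.1 CPM in treated knock-in cells, against 28.4 and 19.2 CPM in untreated knock-in cells, which had the lowest values of all groups. In wild-type cells it was at 33.6 and 37.4 CPM with IFN-γ and at 43.3 and 35.5 CPM without, with overlapping pairs. CCNE1 rose 1.56-fold in knock-in cells (log2 0.64 ± 0.21 SE, edgeR adjusted p = 0.0263) and was not called in wild-type cells (−0.15 ± 0.20, 0.6). The knock-in rise was lost without the second untreated knock-in library (0.38, adjusted p = 0.197) or the second treated one (0.51, 0.162), and without both of these libraries, which carry the plasma cell signal, it was 0.26 (0.585).

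CCNE2 (chr8:94879770-94896678, minus strand), by contrast, was at 47.8 and 47.9 CPM in treated knock-in cells, against 188 and 163 CPM in untreated knock-in cells. The wild-type values were 35.8 and 34.5 CPM with IFN-γ, against 103 and 115 CPM without. No 2 groups overlapped, and the treated pairs were nearly identical. Under TMM scaling it showed the largest fall among the 10 genes in both lines, 3.67-fold in knock-in cells (log2 −1.88 ± 0.13 SE, edgeR adjusted p = 3.95e-05) and 3.09-fold in wild-type cells (−1.63 ± 0.13, 0.000103). CCNE2 shares 1629 of 4397 exonic bases with INTS8 on the opposite strand, with the same limit as for CDK4. The limit also applies to smaller opposite-strand overlaps of other members. These were CDK2 (565 of 3894 bases with AC025162.1 and 89 with PMEL), CCND1 (497 of 4830 with LTO1), CCNA2 (254 of 2798 with EXOSC9) and CCND3 (24 of 5802 with AL513008.1).

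CDK2 (chr12:55966769-55972784, plus strand), the kinase of the E- and A-type cyclins, was at 164 and 175 CPM in treated knock-in cells, against 145 and 182 CPM in untreated knock-in cells. Wild-type libraries held 138 and 140 CPM with IFN-γ and 135 and 135 CPM without. The treated and untreated knock-in pairs overlapped, and the wild-type pairs differed by a few CPM. Its log2 fold changes of 0.05 ± 0.14 SE in knock-in and 0.04 ± 0.14 in wild-type cells were not called (edgeR adjusted p = 0.778 and 0.83).

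CCNA2 (chr4:121816444-121823933, minus strand), which encodes cyclin A2, was at 163 and 160 CPM in treated knock-in cells, against 367 and 372.5 CPM in untreated knock-in cells. The wild-type libraries held 177 and 186 CPM with IFN-γ, against 270 and 361 CPM without. The untreated libraries lay above the treated ones throughout, with the first untreated wild-type library nearest to them. The fall was 2.29-fold in knock-in cells (log2 −1.20 ± 0.15 SE, edgeR adjusted p = 0.00028) and 1.74-fold in wild-type cells (−0.80 ± 0.15, 0.0031).

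CCNB1 (chr5:69167010-69178245, plus strand) encodes cyclin B1, the main activator of CDK1 in mitosis. It was at 90.7 and 97.3 CPM in treated knock-in cells, against 291 and 315 CPM in untreated knock-in cells. In wild-type cells it was at 115 and 108 CPM with IFN-γ, against 228 and 348 CPM without. The untreated groups of the lines overlapped, and every treated library lay far below them. CCNB1 fell 3.22-fold in knock-in cells (log2 −1.69 ± 0.19 SE, edgeR adjusted p = 0.000197) and 2.58-fold in wild-type cells (−1.37 ± 0.19, 0.000821).

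CCNB2 (chr15:59105078-59125045, plus strand), the second B-type cyclin, was at 86.1 and 87.4 CPM in treated knock-in cells, against 144 and 177 CPM in untreated knock-in cells. The wild-type values were 67.7 and 68.4 CPM with IFN-γ, against 90.9 and 122 CPM without. Its treated knock-in libraries came close to the lower untreated wild-type library. The fall was 1.85-fold in knock-in cells (log2 −0.89 ± 0.17 SE, edgeR adjusted p = 0.00174) and 1.56-fold in wild-type cells (−0.64 ± 0.17, 0.0144), the smallest of the 5 falls. The wild-type call was lost without the second untreated (−0.42, adjusted p = 0.0542) or either treated wild-type library (−0.64, 0.0874 and −0.65, 0.0801), and the knock-in call without both second knock-in libraries (−0.74, 0.0884).

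CDK1 (chr10:60778331-60794852, plus strand), the kinase that drives entry into mitosis, was at 103 and 110 CPM in treated knock-in cells, against 422 and 348 CPM in untreated knock-in cells. Wild-type cells held 131 and 126 CPM with IFN-γ, against 288 and 371 CPM without. As for CCNB1, the untreated groups overlapped and the treated groups lay far below. CDK1 fell 3.62-fold in knock-in cells (log2 −1.86 ± 0.16 SE, edgeR adjusted p = 0.000106) and 2.57-fold in wild-type cells (−1.36 ± 0.16, 0.000494). Without both second knock-in libraries its fall in knock-in cells was 4.11-fold, that of CCNE2 was 3.94-fold and that of CCNB1 3.21-fold, each still called.

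CCNA2, CCNB1, CCNB2 and CDK1, which fell together, are textbook targets of the DREAM and MuvB complexes, which bind a short promoter element called the cell cycle homology region (CHR). The promoters were therefore read for its letters. The RefSeq promoter table (GRCh38.p14) held windows for 7 of the 10 genes, namely CCNA2, CCNB1, CCNB2, CCND3, CCNE1, CDK1 and CDK4. The CHR was searched on both strands as TTTGAA or TTCGAA or TTTAAA or CTTGAA. The 30 bases around the match nearest to the gene start are shown 5′ to 3′ on the gene's strand, with the match in capitals, and for CDK4 the first pair of E-boxes (CACGTG), the element that MYC and its relatives bind.
CCNA2, chr4:121823894-121823923, minus strand: agtcgcgggataCTTGAActgcaagaacag
CCNB1, chr5:69167108-69167137, plus strand: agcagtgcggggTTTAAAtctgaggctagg
CCNB2, chr15:59105105-59105134, plus strand: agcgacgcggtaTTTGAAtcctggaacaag
CDK1, chr10:60778448-60778477, plus strand: ccctttagcgcggtgagTTTGAAactgctc
CCNE1, chr19:29811951-29811980, plus strand: gcgcgcagggatTTTAAAtgtcccgctctg
CDK4, chr12:57752499-57752528, minus strand: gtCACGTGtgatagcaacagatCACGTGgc

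The CHR matches of CCNA2, CCNB1 and CCNB2 began at −28, −30 and −29 from the gene start, and that of CDK1 began at −13 from the second of its starts. CCNA2, CCNB2 and CDK1 each held a further match upstream. A CHR match in the last 100 bases before the start was present in 11.3% of all 35116 windows and a match in the full 250 bases in 29.1%. Of the 7 genes with a window, 5 held a match in the last 100 bases. The fifth was CCNE1, with a match at −28. CCNE1 was called higher in knock-in cells (log2 0.64, edgeR adjusted p = 0.0263) and was not called in wild-type cells (−0.15, 0.6). The knock-in call was lost with the GC and length trend removed (0.48, 0.108) and under spike-in scaling (0.11, 0.805). Whether a match goes with the response was not tested. In CCNB2 the match was preceded by CCAAT boxes beginning at −244, −120, −87 and −54, and in CCNB1 by CCAAT boxes at −87 and −55. CCAAT boxes, read on either strand, were also present in CCNA2 (−56) and in CDK1 (−78 and −46 from its second start, −150 from its first). Windows of CCND3, which was called higher in knock-in cells, held them at −136 and −64. CCAAT, the site of the factor NF-Y, was present in 32.0% of all windows. The 3 windows of CCND3 held no CHR match. CDK4 held none either, but 3 E-boxes, an element found in 6.34% of windows, CCNB1 among them. A match describes letters only.

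The 5 genes that fell were also the 5 of lowest GC content, and across all genes the response followed GC content. Mean transcript GC was 37.0% for CDK1, 39.9% for CCNE2, 42.1% for CCNA2, 44.6% for CCNB1 and 45.3% for CCNB2, against 51.4% for CCNE1, 51.5% for CDK2, 56.4% for CDK4, 59.5% for CCND3 and 61.9% for CCND1. Among all genes of 36 to 38% GC the median log2 fold change was −1.16 in knock-in and −0.80 in wild-type cells, and among those of 60 to 62% it was 0.88 and 0.48. Set against genes of like GC content, CCNB1 stayed extreme, with 2.36% of its bin below it in knock-in and 4.43% in wild-type cells. For CCNE2 the share was 3.6% in both lines, and for CDK1 it was 8.76 and 12.4%. CCNA2 (22.2 and 30.8%), CCNB2 (30.7 and 32.5%), CCND3 (61.4 and 48.0%) and CCND1 (74.3 and 63.2%) lay nearer the middle of their bins. CDK4 was low for its GC content, with 11.9 and 15.9% of its bin below it.

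**Figure D2:**
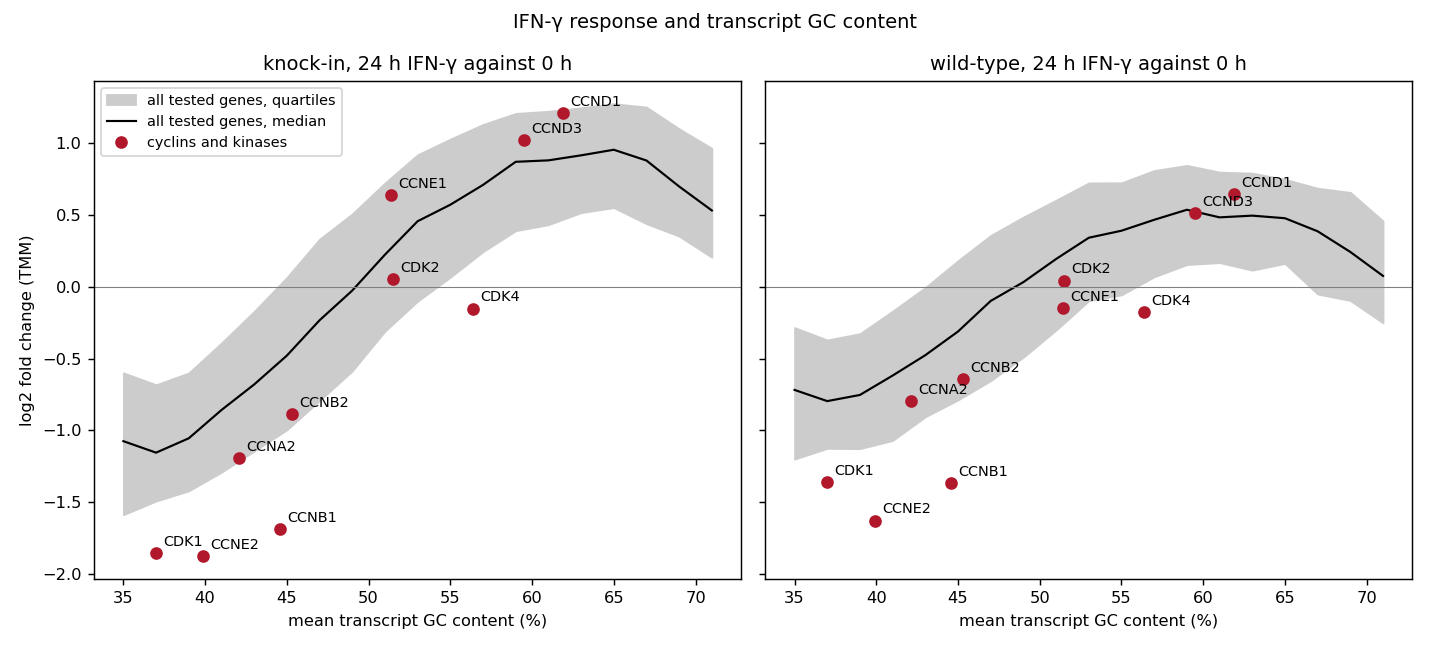
The log2 fold change with IFN-γ (TMM) is plotted against mean transcript GC content (%) for knock-in cells on the left and wild-type cells on the right; the line is the median and the band the quartiles of all tested genes in bins of 2 percentage points, and the red points are the 10 cyclins and kinases. CCNB1, CCNE2, CDK1 and CDK4 lie below the band in both lines, CCNA2 lies at its lower edge in knock-in cells, and CCND1 and CCND3 lie within it.

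With each library's trend on transcript GC content and length removed, the falls shrank and most stayed called. In knock-in cells they were −1.02 for CCNB1 (edgeR adjusted p = 0.000258), −0.93 for CCNE2 (0.000298), −0.77 for CCNA2 (0.000488), −0.70 for CDK1 (0.000628) and −0.39 for CCNB2 (0.0213). In wild-type cells they were −0.97 for CCNE2 (0.000406), −0.88 for CCNB1 (0.000722), −0.56 for CCNA2 (0.00315) and −0.56 for CDK1 (0.00268), while CCNB2 was not called (−0.29, 0.0797). CCNA2, whose fall was smaller than that of CDK1 under TMM scaling, was level with it or ahead of it here. This order depended on the length used. With the trend on GC alone removed CCNA2 stood at −0.51 against −0.75 for CDK1 in knock-in cells, and at −0.33 against −0.60 in wild-type cells. With the trend of the longest transcript removed the values were −0.63 against −0.64 and −0.43 against −0.49. Among the other members, CCND1 (0.52, 0.0107) and CCND3 (0.45, 0.0414) stayed called higher in knock-in cells and CCNE1 did not (0.48, 0.108). In wild-type cells CCND1 was not called (0.35, 0.0657). CDK4 became a called fall in knock-in cells (−0.38, 0.0205) and stood at −0.18 (0.246) in wild-type cells. In 2 fits chosen after seeing the data CDK4 was called lower in both lines, at −0.78 (0.000787) and −0.56 (0.00568) with the trend on GC alone removed and at −0.42 (0.00851) and −0.33 (0.0318) with the trend of the longest transcript removed. With the longest transcript in place of the mean over transcripts all 5 falls were called in both lines (CDK1 −0.64, 0.00189 and −0.49, 0.0105). In knock-in cells CCND3 was not called with the trend on GC alone removed (0.25, 0.19) and was called with the longest transcript (0.52, 0.0295). CCND1 was called there in both of these fits (0.40, 0.0233 and 0.82, 0.0066).

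Scaling to the spike-ins made the falls larger. It moved the median of all genes to −0.41 for the knock-in and −0.72 for the wild-type response, and the sources used here do not give how much spike-in was added, or to what. The falls of the 5 genes then ran from −1.42 (CCNB2) to −2.41 (CCNE2) in knock-in cells and from −1.42 (CCNB2) to −2.42 (CCNE2) in wild-type cells, all called and all beyond the median of all genes. The rises were not called: CCND1 stood at 0.68 (edgeR adjusted p = 0.102), CCND3 at 0.49 (0.237) and CCNE1 at 0.11 (0.805) in knock-in cells. In wild-type cells CCND1 turned to −0.18 (0.663), and CCNE1 (−0.97, 0.0183), CDK2 (−0.76, 0.00827) and CDK4 (−0.98, 0.000618) were called lower, beside that median of −0.72. CDK4 was also called lower in knock-in cells (−0.68, 0.00559).

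**Figure D3:**
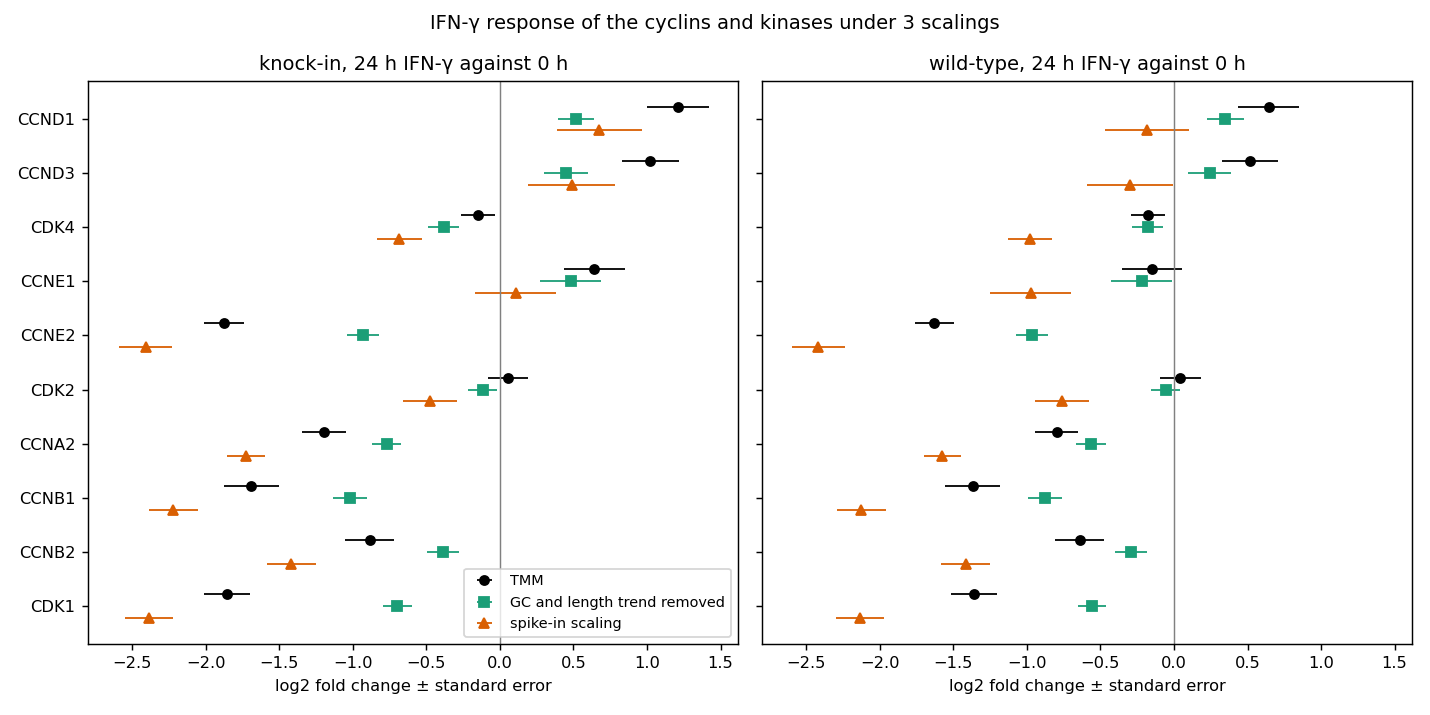
Log2 fold changes with IFN-γ and their standard errors are plotted for the 10 genes, in knock-in cells on the left and wild-type cells on the right, under TMM scaling (circles), with the GC and length trend removed (squares) and under spike-in scaling (triangles). CCNE2, CCNA2, CCNB1, CCNB2 and CDK1 lie left of 0 in all 6 fits, whereas CCND1 and CCND3 in wild-type cells change side under spike-in scaling.

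Under TMM scaling, the fitted change of the 8 genes called in knock-in cells was larger there than in wild-type cells, but no difference between the responses was called. With the GC and length trend removed this did not hold for CCNE2 (−0.93 in knock-in and −0.97 in wild-type cells). Nor did it under spike-in scaling for CCNE2 (−2.41 and −2.42), CCNB2 (−1.42 and −1.42) and CCNE1 (0.11 and −0.97). Over all genes edgeR called 0.0%, that is 0 of 16519, with 1119 under 0.05 before adjustment; DESeq2 called 4 genes, and edgeR without the filter on low counts called 267, none of them a member. Among the members the largest difference was that of CCNE1 (0.79 ± 0.29 SE, edgeR adjusted p = 0.688, and 0.023 before adjustment), whose response had opposite signs in the lines. CDK1 differed by −0.50 ± 0.22 (adjusted p = 0.688, and 0.0483 before adjustment), CCND1 by 0.57 ± 0.29 and CCND3 by 0.51 ± 0.27, while CCNE2 (−0.25 ± 0.18), CDK2 (0.01 ± 0.19) and CDK4 (0.02 ± 0.16) differed by less. With the GC and length trend removed the difference was −0.14 for CDK1, 0.17 for CCND1 and 0.70 for CCNE1, none called.

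Between the lines without IFN-γ, 2 of the 10 genes were called, against 8.43% of all tested genes, with 1 higher in knock-in cells (background 4.26%) and 1 lower (background 4.17%). CCNE2, at 188 and 163 CPM in untreated knock-in against 103 and 115 CPM in untreated wild-type cells, was 1.62-fold higher (log2 0.69 ± 0.13 SE, edgeR adjusted p = 0.0145). CCND1, at 327 and 232 CPM in untreated knock-in against 647 and 436 CPM in untreated wild-type cells, was lower (−0.96 ± 0.21, adjusted p = 0.0264; a ratio of 0.516). CCNE1 (−0.73, 0.0594), CCNB2 (0.59, 0.0559) and CCND3 (−0.58, 0.0921) were not called. CCNA2 (0.23, 0.353), CDK2 (0.28, 0.227), CDK1 (0.22, 0.391), CCNB1 (0.07, 0.841) and CDK4 (−0.06, 0.778) were not called. So the untreated knock-in cells had the highest CCNE2 and the lowest CCNE1, CCND1 and CCND3 mean levels of the 4 groups, and levels of CDK1 and CCNB1 that overlapped those of untreated wild-type cells.

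These line differences rest on few libraries. CCND1 was not called without the first untreated wild-type library (−0.64, edgeR adjusted p = 0.11), the second untreated knock-in library (−0.73, 0.155) or any 1 of the 4 treated libraries (−0.95, 0.0508 to 0.0516). CCNE2 was not called without the first untreated knock-in library (0.59, 0.079) or under spike-in scaling (0.38, 0.183). Without the second untreated wild-type library, which was the one closer to the knock-in libraries in GC content, 8 members were called: CCNA2, CCNB1, CCNB2, CCNE2 and CDK1 higher (0.41 to 0.82) and CCND1, CCND3 and CCNE1 lower (−1.21, −0.77 and −0.87). Over all genes that fit called 4815 of 17393, against 1392 of 16519 with all libraries. With the GC and length trend removed 4 members and 2383 of 16519 genes were called, the members being CCND1 (−0.70, 0.00714), CCNE1 (−0.74, 0.0444), CCNE2 (0.41, 0.0335) and CCNB2 (0.42, 0.0313).

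With IFN-γ none of the 10 genes was called between the lines by edgeR, against 2.91% of all tested genes (1.63% higher and 1.28% lower), and none by DESeq2. CCNE2 alone was under 0.05 before adjustment (0.45 ± 0.13 SE, 0.00738 before adjustment, edgeR adjusted p = 0.124), at 47.8 and 47.9 CPM in treated knock-in against 35.8 and 34.5 CPM in treated wild-type cells. It was called without the first (0.46, 0.048) or second untreated wild-type library (0.45, 0.0395). With the GC and length trend removed CCNE2 (0.44, 0.0415) and CCND1 (−0.53, 0.0338) were called. The same signs as in untreated cells were seen for CCNE2, CCND1, CCNB2 (0.35, 0.351) and CDK2 (0.29, 0.356), whereas CCNE1 stood at 0.06 (0.936), and CCNB1 (−0.25, 0.589) and CDK1 (−0.27, 0.453) were on the other side of 0.

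Ratios of 2 genes within a library do not depend on how libraries are scaled, though they still carry a difference in GC content. The 10 ratios were each compared for treatment within the lines and for line within the treatments. An exact 2-sided permutation test over the 36 arrangements can give no p below 0.0556. Of the 20 comparisons 15 reached that value, which became 0.0741 after Benjamini-Hochberg adjustment over the 20. No comparison could therefore pass 0.05, and sizes are given as descriptions.

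The balance of the E-type cyclins was different in treated cells. CCNE2 stood at 1.41 and 1.2 counts per CCNE1 count in treated knock-in libraries, against 6.64 and 8.51 in untreated ones. In wild-type libraries the ratio was 1.06 and 0.923 with IFN-γ and 2.37 and 3.23 without. The mean log2 difference with IFN-γ was −2.01 (exact permutation p = 0.0556), made of −2.53 in knock-in and −1.48 in wild-type cells. With the GC and length trend removed it was −1.09. Between the lines the ratio was higher in knock-in cells by 0.92 (exact permutation p = 0.0556), made of 0.39 with and 1.44 without IFN-γ.

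Of the B-type cyclins, CCNB2 had fewer counts than CCNB1 in every library, but its counts per CCNB1 count were higher with IFN-γ and in the knock-in line. CCNB2 per CCNB1 was 0.949 and 0.899 in treated knock-in libraries, against 0.494 and 0.561 in untreated ones, and 0.589 and 0.631 in treated against 0.398 and 0.349 in untreated wild-type libraries. The mean log2 difference was 0.76 with IFN-γ and 0.55 for knock-in against wild-type (exact permutation p = 0.0556 each), and it stayed at 0.61 and 0.55 with the trend removed. The 2 genes are close in GC content. CCNB1 and its kinase CDK1 stood at 0.689 to 0.937 counts of CCNB1 per CDK1 count in all libraries, with a mean log2 difference of 0.09 with IFN-γ (exact permutation p = 0.611) and −0.05 between the lines (p = 0.667), but with the trend removed the IFN-γ difference was −0.32.

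For the G1 pair, CCND1 per CDK4 was 3.61 and 3.26 in treated knock-in libraries, against 1.55 and 1.12 in untreated ones, and 4.8 and 3.98 in treated against 3.0 and 1.98 in untreated wild-type libraries. The mean log2 difference was 1.11 with IFN-γ (0.72 with the trend removed) and −0.62 for knock-in against wild-type (−0.55), each with an exact permutation p of 0.0556. CCNA2 per CDK2 was 0.992 and 0.914 in treated against 2.54 and 2.04 in untreated knock-in libraries, and 1.28 and 1.32 in treated against 1.99 and 2.68 in untreated wild-type libraries. Its mean log2 difference with IFN-γ was −1.04 (exact permutation p = 0.0556), or −0.58 with the trend removed. CCND3 per CCND1 differed least of the paralogue ratios, by −0.17 with IFN-γ and 0.34 between the lines.

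**Figure D4:**
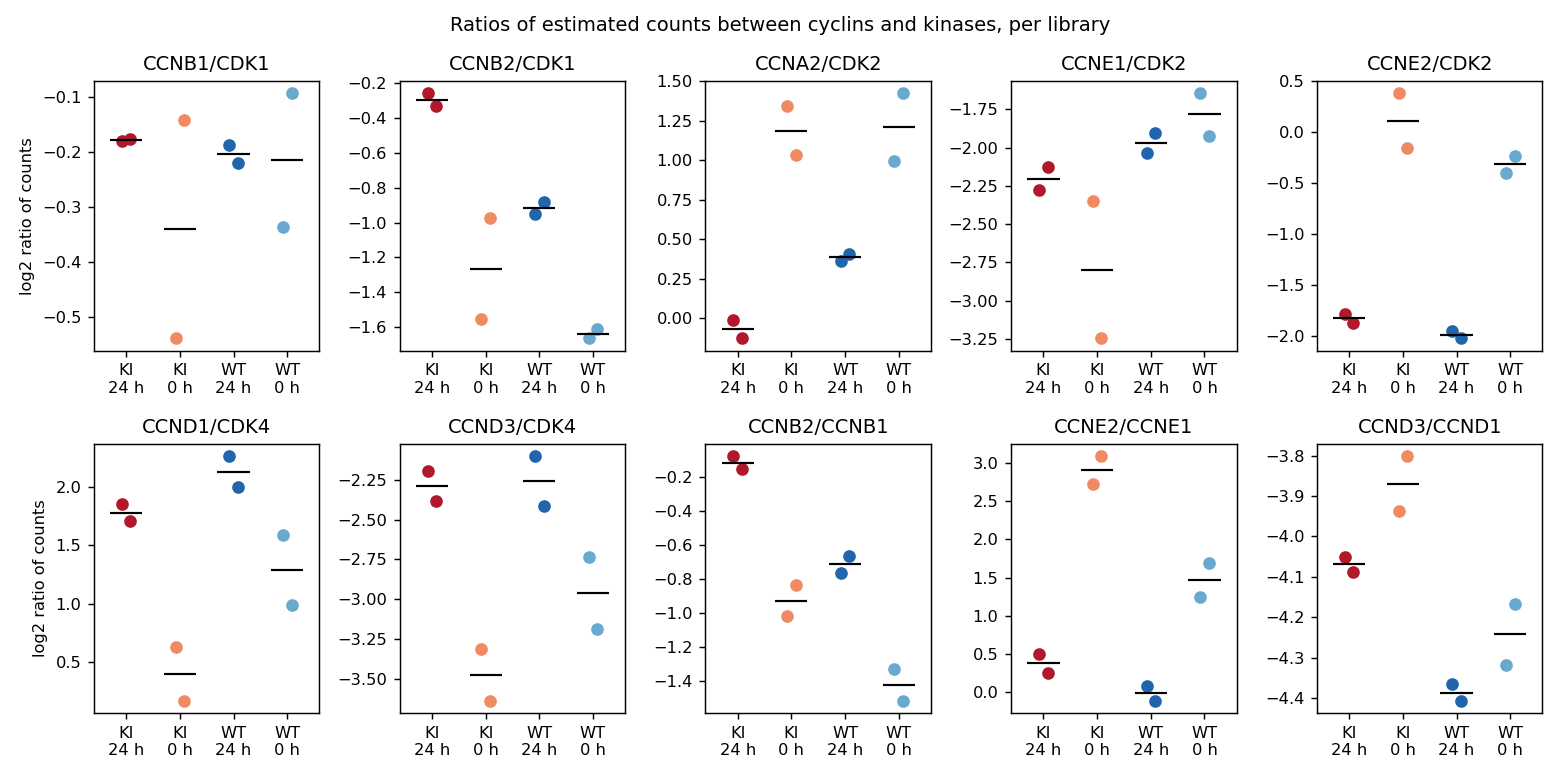
Log2 ratios of estimated counts within a library are plotted for 10 pairs of cyclins and kinases, with a point per library and a bar for the mean of 2 (KI, knock-in; WT, wild-type; 24 h, IFN-γ; 0 h, untreated); each panel has its own axis, which does not start at 0. CCNE2/CCNE1 and CCNA2/CDK2 are lower and CCND1/CDK4 and CCNB2/CCNB1 higher in treated libraries of both lines, and CCNB1/CDK1 moves within a narrow range.

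Levels of different genes can be compared only per length. Averaged over the 8 libraries and divided by the longest coding transcript, CCND1 had 134 CPM per kb and CDK1 122, followed by CDK4 (97.5), CCNA2 (91.9), CCNB1 (91.8) and CDK2 (66.1). CCNB2 (42.1), CCNE2 (27.6), CCNE1 (16.6) and CCND3 (13.2) were lower. Divided by the mean transcript length instead, CDK4 had 234, CCNB1 187 and CDK1 172 CPM per kb, beside 479 for CCND1 and 26.4 and 29.5 for CCNE1 and CCND3. CCND1 was thus the most abundant and CCNE1 and CCND3 the least on both scales, while the order between depended on the length used.

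By the distance between log2 levels over the 8 libraries, centred on each gene's mean, the nearest genes to CDK1 were CSE1L (distance 0.20), BZW1 (0.22) and MRPL1 (0.23), and CCNB1 came at rank 46 (0.37), CCNE2 at rank 1104 and CCNA2 at rank 1134. For CCNE2 the nearest were FAM111B (0.24), MCTS1 (0.31) and HSD17B11 (0.32), and for CCND1 they were IRAK1 (0.14), PPAN (0.16) and CPNE7 (0.16), with CCND3 at rank 484 (0.58). The libraries' shared composition enters these distances.

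Other genes of the pathway were read from lists. With IFN-γ, 26.4% of all tested genes were called higher and 25.8% lower in knock-in cells, and 17.1 and 20.8% in wild-type cells. After removal of the GC and length trend, 2470 of 16519 were higher and 3076 lower in knock-in, and 1867 and 2496 in wild-type cells. These backgrounds apply to every list below. Of the remaining cyclins and kinases of the cycle 5 were tested, of which 1 rose and 1 fell in each line, with medians of 0.24 in knock-in and −0.14 in wild-type cells. CCNF, whose protein is the substrate receptor of a ubiquitin ligase, rose in both lines (1.34 ± 0.24 SE in knock-in, edgeR adjusted p = 0.00152, and 1.19 ± 0.24 in wild-type, 0.00464). After removal of the GC and length trend it stood at 0.45 (0.0516) and 0.60 (0.0181), and under spike-in scaling at 0.81 (0.111) and 0.36 (0.464). CDK6, the second partner of the D-type cyclins, was at 185 and 170 CPM in treated knock-in against 107.5 and 107.5 CPM in treated wild-type cells, and at 241 and 210 CPM in untreated knock-in against 121 and 148 CPM in untreated wild-type cells. It was higher in the knock-in line both with (0.72 ± 0.14, adjusted p = 0.0272) and without IFN-γ (0.74 ± 0.14, 0.0157), while CDK4 was not called. The IFN-γ response of CDK6 was not called (−0.34, 0.065 in knock-in and −0.32, 0.0974 in wild-type cells). After removal of the GC and length trend it was called lower in both lines (−0.92, 0.00109 and −0.78, 0.00375). CCND2, the gene of cyclin D2, was at 0.33 and 6.78 CPM in treated and 0.06 and 5.87 CPM in untreated knock-in libraries, and at 0.19 and 0.00 CPM in treated and 5.98 and 5.51 CPM in untreated wild-type libraries. CCNB3, a further B-type cyclin at 4.76 to 10.8 CPM, fell in knock-in cells (−0.87, 0.0108; −0.60, 0.0666 with the trend removed) and was not called in wild-type cells (−0.14, 0.672). The CCND2 signal was present in the same 4 libraries as the plasma cell markers, and their part in its called fall in wild-type cells (adjusted p = 0.0397) was not tested.

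Of 8 CDK inhibitors tested, 1 was called higher and 1 lower in knock-in cells and 0 higher and 2 lower in wild-type cells, with medians of 0.08 and −0.03 beside 0.12 and 0.08 over all genes. The background of 52.1 and 37.9% called applies here too. CDKN1A, which encodes p21, was at 145 and 148 CPM in treated against 102 and 93.9 CPM in untreated knock-in cells and rose by 0.58 ± 0.13 SE (edgeR adjusted p = 0.00421), but stood at −0.16 (0.26) with the GC and length trend removed and 0.05 under spike-in scaling. In wild-type cells it stood at 0.31 (0.0817). CDKN1A was lower in untreated knock-in than untreated wild-type cells (−0.49, 0.0469), but not called with the trend removed (−0.32, 0.0594). CDKN1B, which encodes p27, was not called with IFN-γ (0.10, 0.634 in knock-in and 0.25, 0.226 in wild-type cells). With the trend removed it was called higher in both lines (0.58, 0.0234 and 0.58, 0.0291), and under spike-in scaling it was not called (−0.44, 0.187 and −0.55, 0.0924). CDKN1B was higher in untreated knock-in than untreated wild-type cells (0.63 ± 0.15, 0.0364), but not called with the trend removed (0.47, 0.0966). CDKN3, a phosphatase of CDK2 and CDK1, fell in both lines (−1.65 and −1.20), but with the GC and length trend removed it stood at −0.44 (0.0443) in knock-in cells and was not called in wild-type cells (−0.22, 0.328). CDKN1C, which encodes p57, was at 0.53 to 7.74 CPM and fell in wild-type cells (−2.43, 0.0156). It was higher in treated knock-in (2.38 and 7.74 CPM) than treated wild-type cells (0.61 and 0.53 CPM), by 3.13 (0.0347).

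Of 11 regulators that activate, inhibit or anchor these kinases, 4 rose and 6 fell in knock-in cells and 1 rose and 6 fell in wild-type cells, with medians of −1.17 and −0.98. Once the GC and length trend was removed, 3 rose and 4 fell in knock-in and 2 rose and 5 fell in wild-type cells, and the medians were −0.11 and −0.30. The backgrounds given above for all tested genes apply to both sets of counts. CDC25C, a phosphatase that activates CDK1, was at 37.1 and 37.9 CPM in treated against 85.2 and 88.0 CPM in untreated knock-in cells, and at 23.2 and 20.3 CPM in treated against 39.5 and 46.2 CPM in untreated wild-type cells. It fell in both lines (−1.21 ± 0.14 and −0.98 ± 0.14 SE, edgeR adjusted p = 0.000224 and 0.00107; −0.92 and −0.80 with the GC and length trend removed) and was higher in knock-in cells with (0.79, 0.0199) and without IFN-γ (1.01, 0.00356). CDC25B, of the same family, rose in knock-in cells (1.58 ± 0.27, 0.00106) and was not called in wild-type cells (0.58, 0.105). It was lower in untreated knock-in than untreated wild-type cells (−1.05, 0.0421, and −0.87, 0.0192 with the trend removed). CKS2, a small subunit of CDK complexes, fell in both (−2.04 and −1.47), as did MNAT1, which helps to assemble the CDK-activating kinase (−1.46 and −1.48). With the trend removed CKS2 was called in knock-in cells (−0.66, 0.0309) and not in wild-type cells (−0.30, 0.31), and MNAT1 in wild-type cells (−0.55, 0.00485) and not in knock-in cells (−0.24, 0.115). WEE1, which inhibits CDK1, was not called (0.14, 0.436 in knock-in and 0.25, 0.194 in wild-type cells). With the trend removed it was called higher in both lines (0.82, 0.00534 and 0.65, 0.0201), and under spike-in scaling it was not called (−0.39, 0.229 and −0.58, 0.0758).

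Under TMM scaling genes of mitosis split. Of 30 tested, 7 were called higher and 21 lower in knock-in cells and 6 higher and 17 lower in wild-type cells, with medians of −1.11 and −0.65. With the GC and length trend removed the counts were 5 higher and 21 lower and 4 higher and 17 lower. Both sets of counts stand beside the backgrounds given above for all tested genes. Under spike-in scaling 0 were called higher and 22 lower in each line. Of all 16519 tested genes, that scaling called 616 higher and 5476 lower in knock-in cells, and 233 higher and 6745 lower in wild-type cells. TTK, a kinase of the spindle checkpoint, fell (−2.04 ± 0.16 SE in knock-in and −1.49 ± 0.16 in wild-type cells, edgeR adjusted p = 7.13e-05 and 0.000401), and so did ECT2, which directs cytokinesis (−1.88 and −1.33). NUF2, a kinetochore subunit, and ASPM, a spindle pole protein, fell in both lines (−1.73 and −1.20 in knock-in, −1.17 and −0.60 in wild-type cells) and were higher in untreated knock-in than untreated wild-type cells (0.74, 0.0205 and 0.96, 0.0139). With the trend removed the falls were smaller but still called. In knock-in and wild-type cells they were −0.96 and −0.72 for TTK, −1.08 and −0.78 for ECT2, −0.50 and −0.29 for NUF2 and −0.66 and −0.34 for ASPM. Against them rose MKI67, the gene of the proliferation antigen Ki-67. It was at 295 and 269 CPM in treated against 143 and 159 CPM in untreated knock-in cells, and at 339 and 323 CPM in treated against 147 and 146 CPM in untreated wild-type cells. Its rise was 0.90 ± 0.12 in knock-in and 1.17 ± 0.12 in wild-type cells (adjusted p = 0.000353 each), 0.76 and 0.95 with the trend removed and 0.37 in both lines under spike-in scaling, where it was not called (0.134 and 0.124). PLK1, the mitotic polo kinase, rose by 1.05 (0.00213) and 0.59 (0.0442), and CDC20, the activator of the ligase that destroys cyclin B, by 0.92 (0.00152) and 0.75 (0.00739). With the trend removed PLK1 stood at 0.49 (0.0214) in knock-in cells and was not called in wild-type cells (0.33, 0.111), while CDC20 stayed called (0.43, 0.0126 and 0.52, 0.00707). Under spike-in scaling PLK1 was at 0.51 and −0.25 and CDC20 at 0.39 and −0.09, none called.

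The regulators upstream of the cyclin genes were called about as often as all tested genes. Of 20 RB, E2F and DREAM genes, 6 rose and 5 fell in knock-in cells (background 26.4 and 25.8%). In wild-type cells 4 rose and 3 fell (background 17.1 and 20.8%). Their medians were near 0 (0.01 and 0.06). FOXM1, a factor that activates CCNB1 and other G2/M genes, rose by 1.45 ± 0.24 SE in knock-in (edgeR adjusted p = 0.000979) and 0.94 ± 0.24 in wild-type cells (0.0131). Without the GC and length trend FOXM1 stood at 0.90 (0.0062) and 0.55 (0.061), and under spike-in scaling at 0.92 (0.069) and 0.11 (0.842). LIN9, a subunit of the MuvB complex, fell by 1.65 and 1.49 on the log2 scale (0.000216 and 0.000699), and by 1.13 and 1.19 with the trend removed. It was higher in untreated knock-in than untreated wild-type cells (1.02, 0.0141). E2F1 rose in knock-in cells (0.77, 0.00457) but stood at −0.26 with the trend removed, and MYBL2 stood at 1.01 (0.000689) and −0.03. RB1 itself fell in knock-in cells (−0.46, 0.037; 0.16 with the trend removed) and was not called in wild-type cells (−0.30, 0.177). E2F4 rose in knock-in cells (0.76, 0.00128) and was lower in untreated knock-in than untreated wild-type cells (−0.56, 0.0359, and −0.40, 0.0248 with the trend removed). RBL1, a relative of RB1, was lower in treated knock-in than treated wild-type cells (−0.69, 0.0228).

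Of 18 genes of the ubiquitin ligases that destroy cyclins, 4 rose and 11 fell in knock-in cells and 3 rose and 9 fell in wild-type cells, with medians of −0.59 and −0.46, but with the GC and length trend removed 5 fell in each line. SKP1, a core subunit of the SCF ligases, fell by 1.37 and 1.13 on the log2 scale (edgeR adjusted p = 0.000197 and 0.000761), and so did ANAPC10, a subunit of the anaphase-promoting complex (−1.71 and −1.41). With the trend removed these falls were smaller, at −0.66 (0.0005) and −0.64 (0.000884) for SKP1 and −0.45 (0.0358) and −0.44 (0.0462) for ANAPC10. Of 20 G1/S genes, 5 rose and 8 fell in knock-in cells and 3 rose and 7 fell in wild-type cells, with medians of −0.18 and 0.05. PCNA, the sliding clamp of replication, was at 246.5 and 233 CPM in treated against 633 and 688 CPM in untreated knock-in cells, and at 247.5 and 230 CPM in treated against 480 and 741 CPM in untreated wild-type cells (−1.46 ± 0.19 and −1.36 ± 0.19 SE, 0.000311 and 0.000881). CDC6, which loads the replicative helicase, fell with it (−1.13 and −0.89), as did GMNN, an inhibitor of that loading (−1.32 and −1.22, not called with the trend removed). RRM2, a subunit of ribonucleotide reductase, was lower in treated knock-in than treated wild-type cells (−0.68, 0.04). Of 13 cyclins and kinases of transcription, which share the fold and not the cycle function, 5 rose and 4 fell in knock-in cells. In wild-type cells 4 rose and 4 fell, and the medians were 0.23 and 0.32. The same backgrounds over all tested genes apply to the ligase, G1/S and transcription lists. CCNC, the cyclin that works with CDK8, fell (−1.48 and −1.15, with −0.39 and −0.37 left after removal of the trend) and CDK12 rose (1.23 and 1.09). CDK19, a paralogue of CDK8, was higher in untreated knock-in than untreated wild-type cells (0.83, 0.0227). When libraries were scaled to the spike-ins, the rises of CDC25B, CDKN1A, E2F1, E2F4 and MYBL2 were not called in either line. That of CDK12 was called in knock-in cells (0.70, 0.0271) and not in wild-type cells (0.28, 0.331). Under that scaling no line difference named for CDK6, CDC25B, CDC25C, CDKN1A, CDKN1B, CDKN1C, E2F4, LIN9, ASPM, NUF2, RBL1, RRM2 and CDK19 was called.

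**Figure D5:**
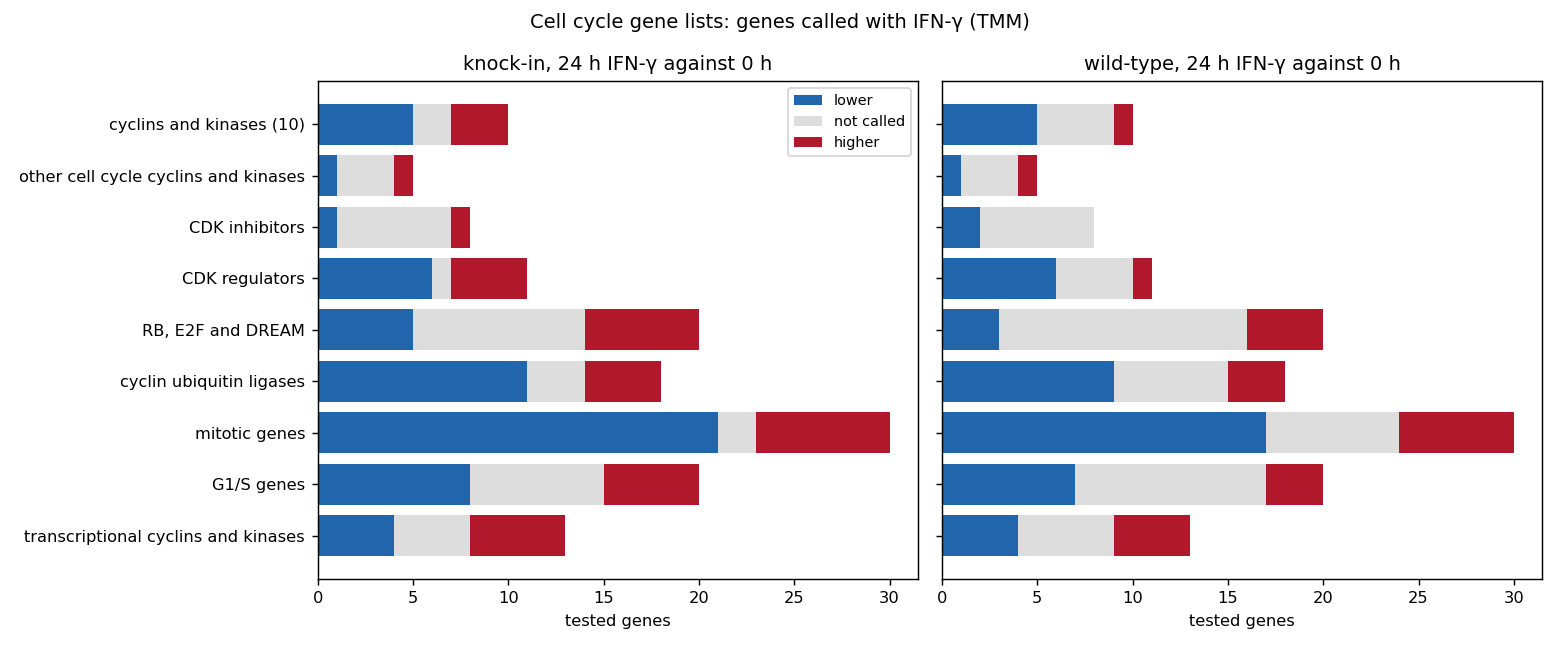
For each gene list the bar gives the number of tested genes called lower (blue), not called (grey) and called higher (red) with IFN-γ under TMM scaling, in knock-in cells on the left and wild-type cells on the right. Mitotic genes have the largest block of lower genes, 21 of 30 in knock-in and 17 of 30 in wild-type cells, and of 8 CDK inhibitors 2 were called in each line. Of all tested genes 52.1 and 37.9% were called, with 25.8 and 20.8% called lower.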

How the data were processed

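The submitters' processing notes name Trimmomatic, kallisto and GRCh38. Their versions, the annotation and any strand setting were not given in the sources used here. Per Ensembl gene ID the authors deposited estimated counts (58.1% of nonzero values are not whole at a tolerance of 1e-06), which were rounded. GENCODE release 29 named 35583 of 40295 IDs. The 63 spike-ins were left out of tests. All 8 libraries entered 1 model with group as the only factor (edgeR 4.0.16, R 4.3.3, filterByExpr with a minimum count of 10, TMM factors 0.860 to 1.13, common dispersion 0.0415). Spread is between 2 libraries a group. Alternatives were DESeq2 1.42.0 and its size factors, spike-in totals, no filter, a replicate block, removal of the GC and length trend (loess, span 0.3, known for 92.4% of tested genes) and each library left out. Chosen after seeing the data were the trend on GC alone, the trend of the longest transcript and omission of both second knock-in libraries. The test recovered planted changes in data simulated with its own fitted spread and no GC trend. These simulations do not show how it performs where libraries differ in GC content. The members, gene lists and rule for named genes (the 10 members, 12 regulators, the 2 largest called changes of each list and the 3 nearest genes to CDK1, CCNE2 and CCND1) were chosen with earlier results of these data known.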

Additional observations from a re-analysis of the deposited data

How the results depend on the processing

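Of 900 member values under 18 alternatives, 36 lost and 45 gained a call, and 2 reversed, both in the wild-type response under spike-in scaling (CCND1 to −0.18, CDK2 to −0.76); 64 others changed sign with no call on either side. The falls of CCNA2, CCNB1, CCNE2 and CDK1 with IFN-γ were called in both lines under all 18. The number of members called in the wild-type response (6) and in the difference between responses (0) stayed within 1.5 times. In the knock-in response 8 became 5 without both second knock-in libraries, which leaves 1 library a knock-in group, assumed to vary like the others, and calls over all genes went to 3523 of 17228 from 8613 of 16519. Between untreated lines 2 became 0 in that setting (250 of 17228 over all genes, against 1392 of 16519), 1 under spike-in scaling, 5 without the filter, and 4 with DESeq2, the replicate block, the GC and length trend removed (also with the replicate block), GC alone or the longest transcript, and ran from 1 to 8 with 1 library left out. Over all genes, calls there were 667 of 16519 under spike-in scaling, 2959 of 24104 without the filter, 2291 with DESeq2, 1849 with the replicate block and 2383 with the trend removed. CCND3 in wild-type cells was also called without the filter (0.52, adjusted p = 0.0271) and with the replicate block (0.52, 0.0208). Between treated lines 0 became 2 with the trend removed (also with the replicate block) or GC alone, 1 with the longest transcript and 0 to 1 with 1 library left out. The cause of these shifts was not tested. Same-numbered libraries share only a number: their deviations correlated at 0.27 for treated with untreated knock-in cells and at −0.00 to 0.07 otherwise. Of 200 ratio values under alternatives 9 moved, all with the trend removed. With 2 libraries a group, small differences are not detectable.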
